A study of Mus musculus with 22 samples.

Results

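Camk2a, Camk2b, Camk2d and Camk2g, the genes of the 4 subunits of calcium/calmodulin-dependent protein kinase II (CaMKII), were examined together with the CaMKII inhibitor genes Camk2n1 and Camk2n2 and the related kinase genes Camk4, Camk1d, Camkk1 and Camkk2. These 10 genes were taken by name from a table of read counts for 39056 genes, and each was matched through its Ensembl identifier. All 10 were among the 14072 genes with enough counts to be tested. RNA came from the prefrontal cortex (PFC) of 11 male mice, 8 to 12 weeks old on a C57BL/6J background, that carried tetO-EGFP/Rpl10a together with CaMKIIα-tTA. In these mice the Camk2a promoter drives the transactivator that switches on an EGFP-tagged ribosomal protein, and translating ribosome affinity purification (TRAP) with an anti-EGFP antibody recovers RNA bound to tagged ribosomes. That fraction is referred to as ribosomal engagement (RE). The total-RNA library of each mouse came from the same homogenate, after centrifugation and before the pull-down, and holds RNA of all cell types. Control mice (n = 3) received saline i.p., EtOH mice (n = 4) received ethanol to a daily dose of 2 g/kg, and EtOH + ABT-888 mice (n = 4) received the same ethanol with the PARP inhibitor ABT-888 (25 mg/kg) added on day 4. Injections were given 2 times a day for 4 days, 2 h apart, and PFC was collected 2 h after the last one. All 3 groups carried both transgenes, so no library came from a mouse without the tagged ribosome, and no mouse received ABT-888 without EtOH.

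CaMKII is a multi-subunit kinase that is switched on when calcium loads calmodulin, and it can then hold itself active by phosphorylating its own subunits. In forebrain excitatory neurons the alpha and beta subunits predominate and CaMKII is known for its part in synaptic plasticity, while the gamma and delta subunits are expressed in many tissues. A second branch runs through Camkk1 and Camkk2, kinases that phosphorylate and activate the CaM kinases I and IV, encoded among others by Camk1d and Camk4.

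TRAP libraries held 6570957 to 22002618 counts and total-RNA libraries 22132534 to 32421392. The shallowest was the TRAP library of EtOH + ABT-888 mouse 6, and it also had the lowest median correlation across genes with the other TRAP libraries (0.938, with the highest at 0.958), nearly level with that of EtOH + ABT-888 mouse 10 (0.9382 against 0.9377 for mouse 6). Among total-RNA libraries that of EtOH + ABT-888 mouse 10 was lowest (0.971, against up to 0.983). The TRAP fraction went against the labelled tissue in part. All 4 markers of cortical excitatory neurons (Slc17a7, Neurod6, Tbr1, Neurod2) were lower in TRAP than in total-RNA in each treatment group, and their summed level was 134 to 580.1 CPM (read counts scaled to library size) in TRAP and 1034 to 1353 CPM in total-RNA. All 5 markers of striatal projection neurons (Drd1, Drd2, Ppp1r1b, Adora2a, Rgs9) were higher in TRAP, at 4040.4 to 5904 CPM in sum against 484 to 961 CPM. The 6 astrocyte markers summed to 43.7 to 207 CPM in TRAP and 915 to 1189 CPM in total-RNA, and the 6 microglial markers to 4.54 to 38.2 and 61.9 to 238 CPM, with no marker at 0 throughout either fraction. The 6 oligodendrocyte markers summed to 318 to 1458 CPM in TRAP and 1603 to 3151 CPM in total-RNA, and the 5 endothelial markers to 3.81 to 26.1 and 61.3 to 107 CPM. All markers of these 4 lists passed as lower in TRAP in each treatment group, except 1 of the 6 microglial ones in EtOH + ABT-888. The 3 nuclear RNAs summed to 445 to 1608 CPM in TRAP and 2629 to 7021 CPM in total-RNA, with 3 of 3 lower in Control and EtOH mice and 2 of 3 in EtOH + ABT-888. The 7 inhibitory neuron markers summed to 1660.1 to 2299.8 CPM in TRAP and 717 to 1023 CPM in total-RNA, but the list was mixed, with 3 higher and 2 lower in Control and 3 higher and 3 lower in EtOH and in EtOH + ABT-888 mice. The part of these differences in the values below was not tested.

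Compared per kilobase of annotated exon, 3 of the genes stood near the top of the 14051 genes that could be ranked, with Camk2a at place 64 in TRAP and 41 in total-RNA, Camk2n1 at 53 and 48, and Camk4 at 58 in both. In TRAP, Camk2n1 was at 335 ± 72.4 CPM per kb (SD, n = 11), Camk4 at 319 ± 65.6 and Camk2a at 306 ± 54.2. These neighbours overlapped in range, and Camk2n1 exceeded Camk4 in 6 of 11 libraries, so their order was not resolved. Camk2b followed at 144 ± 17.2 CPM per kb and did not overlap the genes on either side. Camkk1 (47.8 ± 18.6), Camk1d (47.1 ± 8.74), Camkk2 (35.1 ± 9.43), Camk2g (22.2 ± 4.35) and Camk2n2 (14.9 ± 4.29) formed a chain in which each gene overlapped the next. Camk2d was lowest, at 1.77 ± 0.536 CPM per kb, and below every other member in all 11 libraries. In total-RNA the first was Camk2a (314 ± 33.4 CPM per kb), followed by Camk2n1 (282 ± 32.5) and Camk4 (234 ± 39.5), each overlapping the next. Camk2b (72.2 ± 6.57) was separate from both neighbours. Camk2g (49.8 ± 5.46), Camkk1 (40.0 ± 11.1), Camk1d (36.7 ± 4.60), Camk2n2 (29.3 ± 4.57) and Camkk2 (19.1 ± 5.79) overlapped from one to the next, and Camk2d (6.44 ± 1.21) was again last. The order depends on the length used. Camk2d has 22493 exon bases over all its transcripts but 5524 in its longest coding one, and with the latter lengths Camk2a led both fractions and Camk2d was still last by mean. In total-RNA Camk2d then overlapped Camk2n2, which was above it in 7 of 11 libraries, so their order was not resolved.

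**Figure D1:**
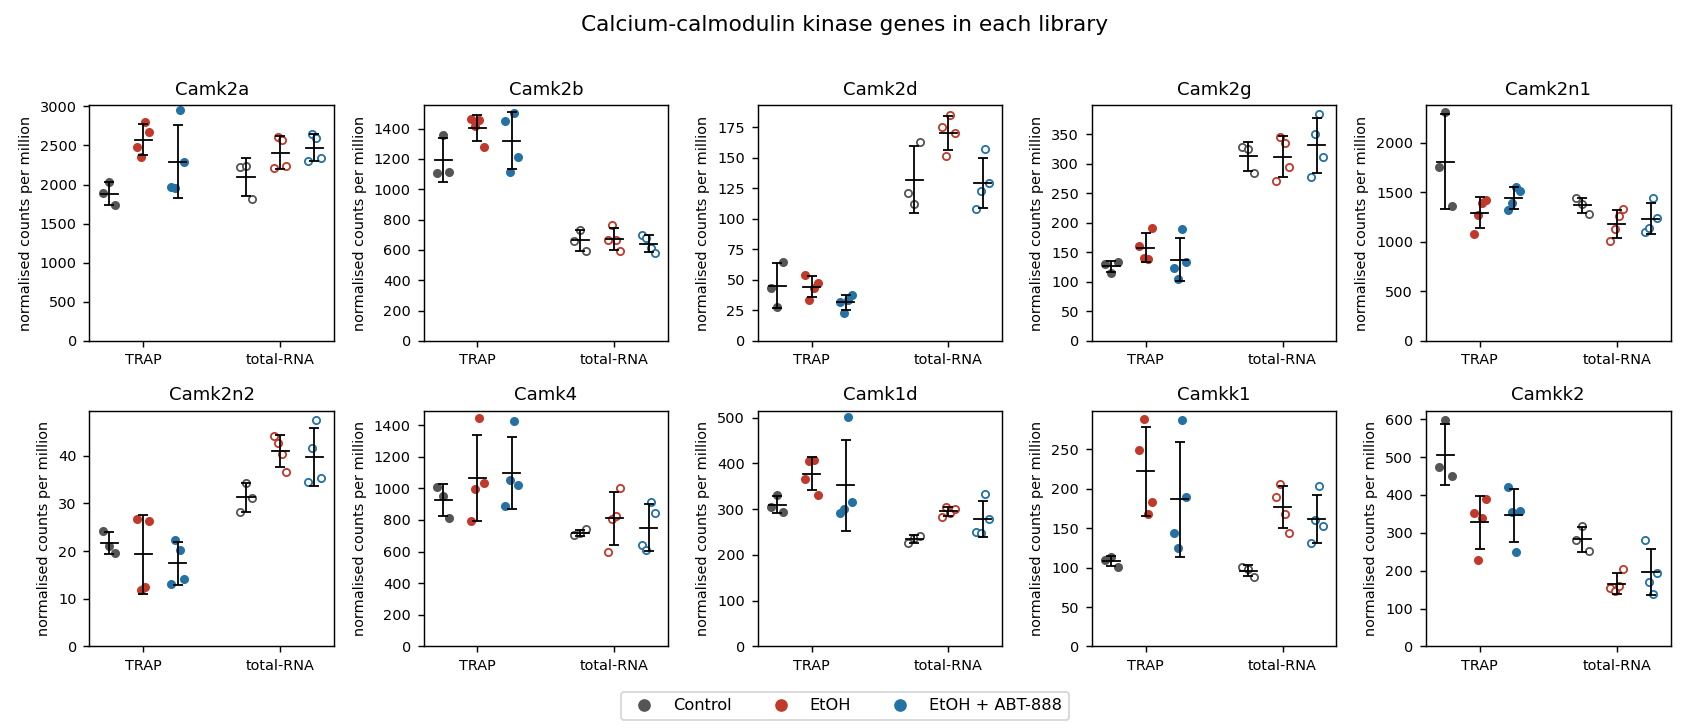
Normalised CPM of the 10 genes in each of the 22 libraries, one panel per gene, with TRAP libraries as filled and total-RNA libraries as open circles; bars give the mean and SD of each treatment group (n = 3 or 4). Camk2b and Camkk2 sit higher in TRAP, Camk2d, Camk2g and Camk2n2 sit higher in total-RNA, and Camkk1 and Camkk2 shift in opposite directions between Control and EtOH libraries.

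The first question was which of these transcripts were more or less engaged with the tagged ribosomes than their share of total-RNA. Among the CaMKII subunits, Camk2b was higher in TRAP, Camk2d and Camk2g were lower, and Camk2a did not pass the test in any treatment group. Camkk2 was higher in TRAP and the inhibitor gene Camk2n2 lower in all 3 groups. In the quasi-likelihood test of edgeR, with p adjusted over all genes by the Benjamini-Hochberg procedure and a threshold of 0.05, 5 of the 10 were higher and 3 lower in Control, where 60.2% of all genes passed, 30.4% higher and 29.8% lower. In EtOH 3 were higher and 3 lower, against 51.0% of all genes, 25.2% higher and 25.9% lower. In EtOH + ABT-888 3 were higher and 3 lower, against 41.0% of all genes, 19.5% higher and 21.5% lower. Counted without a test, TRAP and total-RNA libraries did not overlap for 8, 6 and 4 of the 10 genes in the 3 groups, beside 66.9%, 47.3% and 40.4% of all genes. The median log2 fold change of the 10 was 0.27, 0.23 and 0.22 in the 3 groups, beside 0.032, 0.049 and 0.050 over all genes tested. In bulk RNA, a difference in the number of contributing cells and a difference in RNA per cell cannot be told apart.

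Camk2a (chromosome 18, 60925618 to 60988152, mm10), whose promoter drives the tag, ran from 1732 to 2950.2 CPM (median 2291) in the 11 TRAP libraries and from 1810.0 to 2646 CPM (median 2305) in the 11 total-RNA libraries. It was higher in TRAP in 4 mice and lower in 7. Its log2 fold change of TRAP over total-RNA was -0.15 in Control, 0.10 in EtOH and -0.11 in EtOH + ABT-888 mice (adjusted p = 0.243, 0.527 and 0.612), with 95% intervals of -0.39 to 0.084, -0.17 to 0.36 and -0.45 to 0.23. Camk2b (chromosome 11, 5969644 to 6066362), the subunit that also binds F-actin, ran from 1106 to 1503 CPM (median 1359) in TRAP and 580.3 to 765 CPM (median 662) in total-RNA. The ranges did not meet, and Camk2b was higher in TRAP in all 11 mice. Its log2 fold changes were 0.85 in Control, 1.06 in EtOH and 1.04 in EtOH + ABT-888 mice (adjusted p = 4.76e-05, 3.43e-05 and 0.000164).

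The broadly expressed subunits went the other way. Camk2d (chromosome 3, 126596302 to 126846326) ran from 23.1 to 64.5 CPM (median 37.4) in TRAP and 108 to 185 CPM (median 152) in total-RNA, with no overlap. It was lower in TRAP by log2 values of -1.55 in Control, -1.94 in EtOH and -2.03 in EtOH + ABT-888 mice (adjusted p = 0.000208, 4.82e-06 and 1.41e-05). Camk2g (chromosome 14, 20734875 to 20794088) ran from 104 to 191 CPM (median 133) in TRAP and 271 to 384 CPM (median 325) in total-RNA, again without overlap. Its log2 fold changes were -1.31 in Control, -0.98 in EtOH and -1.26 in EtOH + ABT-888 mice (adjusted p = 6.61e-07, 0.000147 and 0.000330). Both genes were lower in TRAP in all 11 mice. The plot of TRAP over total-RNA fold changes gives the fitted values by treatment group.

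**Figure D2:**
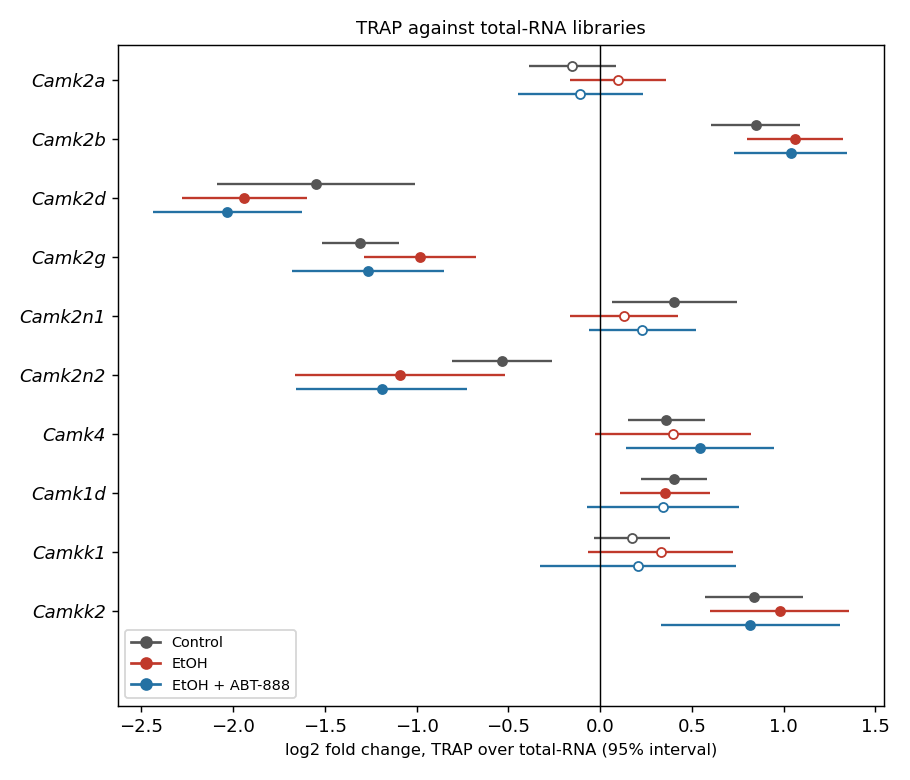
Log2 fold change of TRAP over total-RNA for each gene in the 3 Control, 4 EtOH and 4 EtOH + ABT-888 mice; lines are 95% intervals of the edgeR fit, and filled points have an adjusted p under 0.05. Camk2b and Camkk2 lie right of 0 and Camk2d, Camk2g and Camk2n2 left of it in all 3 groups, while the intervals of Camk2a and Camkk1 cross 0 in each.

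The make-up of the CaMKII transcripts, taken as each subunit's share of the summed counts per kb, differed between the fractions. Camk2a made up 64.3 ± 2.61% in TRAP and 70.9 ± 1.63% in total-RNA (SD, n = 11 libraries each). The share of Camk2b was 30.6 ± 2.71% in TRAP against 16.4 ± 1.51%, that of Camk2g 4.68 ± 0.586% against 11.3 ± 0.803%, and that of Camk2d 0.383 ± 0.146% against 1.47 ± 0.327%. The log2 ratio of Camk2b to Camk2a was higher in TRAP by 1.04 ± 0.11 (SD of the within-mouse differences, n = 11 mice). The log2 ratio of Camk2d plus Camk2g to Camk2a plus Camk2b differed by -1.46 ± 0.17, TRAP minus total-RNA. Both differences had the same sign in 11 of 11 mice (exact sign-flip permutation test over mice, two-sided p = 0.000977, the smallest that 11 mice allow, and 0.00439 adjusted over the 9 ratio tests). When the longest coding transcript was used as the length, the Camk2b share was 39.5 ± 3.02% in TRAP and 22 ± 1.88% in total-RNA, so the shares depend on the gene model while the direction between fractions did not.

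**Figure D3:**
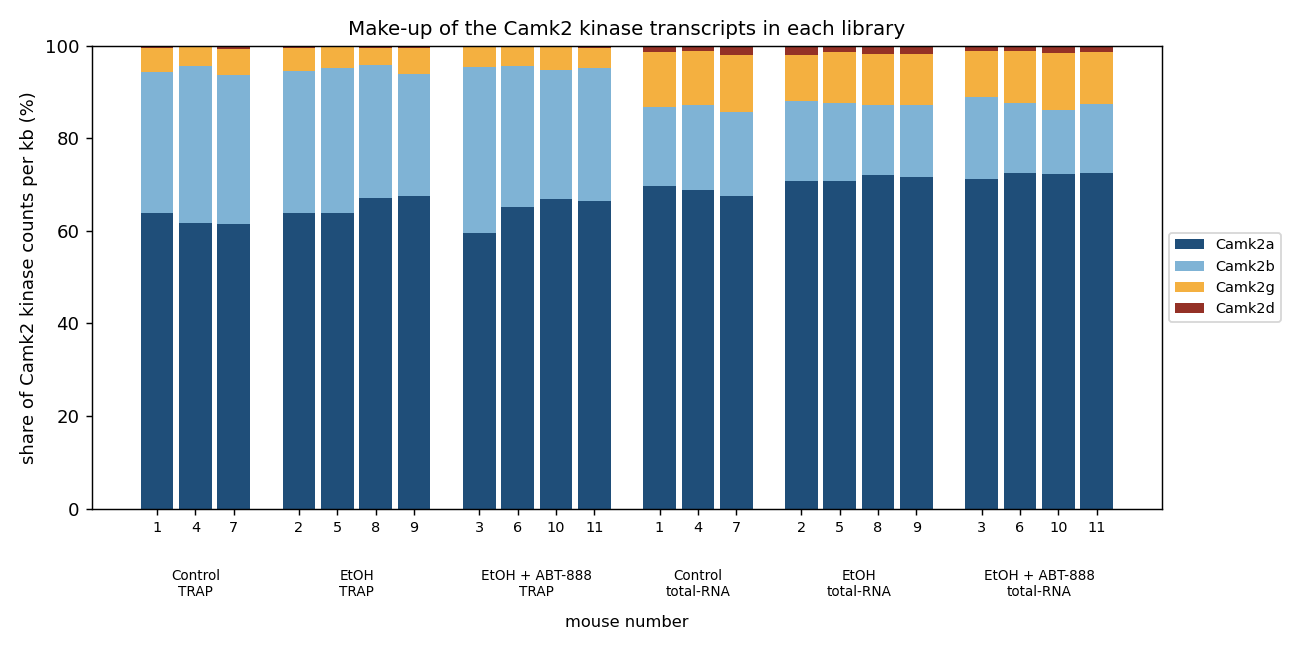
Share of each CaMKII subunit in the summed counts per kb of the 4 subunit genes, as stacked bars that reach 100%, one bar per library, numbered by mouse. The Camk2b band is wider and the Camk2g and Camk2d bands narrower in the 11 TRAP libraries than in the 11 total-RNA libraries.

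The inhibitor genes encode small proteins that bind the active CaMKII catalytic domain. Camk2n2 was lower in TRAP in all 3 groups, and Camk2n1 passed as higher in Control only. Camk2n2 (chromosome 16, 20619215 to 20621287) ran from 11.9 to 26.6 CPM (median 20.3) in TRAP and 28.2 to 47.5 CPM (median 36.6) in total-RNA and was lower in TRAP in all 11 mice. Its log2 fold changes were -0.54 in Control, -1.09 in EtOH and -1.19 in EtOH + ABT-888 mice (adjusted p = 0.00298, 0.00446 and 0.00106), and the Control call was lost in one fit over all 22 libraries (adjusted p = 0.108). Camk2n1 (chromosome 4, 138454314 to 138460123) was about 335 CPM per kb in TRAP beside 14.9 for Camk2n2, so the pair's sum is mostly Camk2n1. It ran from 1082 to 2314 CPM (median 1396) in TRAP and 1008 to 1448 CPM (median 1258) in total-RNA. It was higher in TRAP in all 11 mice, with log2 fold changes of 0.40 in Control, 0.13 in EtOH and 0.23 in EtOH + ABT-888 mice (adjusted p = 0.0410, 0.439 and 0.190). Its call in Control was lost without the TRAP library of mouse 1 or 4 or any 1 of the 3 total-RNA libraries (adjusted p = 0.0715 to 0.138), and the value itself was 0.19 without the TRAP library of mouse 4. It was also lost with the size factors of DESeq2 in place of TMM (0.0711). With the mouse as a replicate block the Control call held (log2 fold change 0.37, adjusted p = 0.0114). The log2 ratio of both inhibitor genes to the 4 subunit genes differed between fractions by 0.064 ± 0.33 (SD, n = 11 mice, exact permutation p = 0.524, two-sided), with 6 mice higher in TRAP.

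Of the kinases outside CaMKII, Camk4 (chromosome 18, 32934931 to 33191228), a largely nuclear kinase that phosphorylates the transcription factor CREB, ran from 794 to 1446 CPM (median 1009) in TRAP and 599.6 to 1005 CPM (median 740.5) in total-RNA. It was higher in TRAP in all 11 mice, with log2 fold changes of 0.36 in Control, 0.40 in EtOH and 0.55 in EtOH + ABT-888 mice (adjusted p = 0.00618, 0.108 and 0.0332). The Control call was lost in one fit over all 22 libraries (adjusted p = 0.176). In EtOH mice the call was reached with the mouse as a replicate block (log2 fold change 0.39, adjusted p = 0.0250). Without that block the value was 0.22 once the TRAP library of mouse 8 was left out, and passed without that of mouse 2 (0.52, adjusted p = 0.0398). In EtOH + ABT-888 the call was lost without the TRAP library of mouse 6, 10 or 11 or the total-RNA library of mouse 3, 6 or 11 (adjusted p = 0.0520 to 0.102), and with DESeq2's size factors or no filter on low counts (0.0509 and 0.0611). With the mouse as a block that call held (0.55, adjusted p = 0.00156). Camk1d (chromosome 2, 5293457 to 5714515), a member of the CaM kinase I family, ran from 291 to 501 CPM (median 330.0) in TRAP and 225 to 334 CPM (median 278) in total-RNA and was also higher in TRAP in all 11 mice. Its log2 fold changes were 0.40 in Control, 0.35 in EtOH and 0.34 in EtOH + ABT-888 mice (adjusted p = 0.00128, 0.0195 and 0.172). The EtOH + ABT-888 value passed once libraries were blocked by mouse (0.31, adjusted p = 0.0243) and in one fit over all 22 libraries (0.34, adjusted p = 0.0454). It was 0.12 without the TRAP library of mouse 10 in the main fit, which has no blocks (adjusted p = 0.507). The EtOH call of Camk1d was lost without the TRAP library of mouse 5 or the total-RNA library of mouse 2 or 8 (adjusted p = 0.0501, 0.0554 and 0.0505), and with no filter on low counts (0.108). That call held with the mouse as a block (0.35, adjusted p = 0.0105).

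The upstream kinases differed from each other. Camkk2 (chromosome 5, 122731170 to 122779409) was higher in TRAP in all 11 mice, at 228 to 598 CPM (median 358) against 139 to 318 CPM (median 195). Its log2 fold changes were 0.84 in Control, 0.98 in EtOH and 0.82 in EtOH + ABT-888 mice (adjusted p = 0.000113, 0.000665 and 0.0118). Camkk1 (chromosome 11, 73019008 to 73042073) was at 101 to 288 CPM (median 168) in TRAP and 88.0 to 206 CPM (median 152) in total-RNA, with 9 mice higher and 2 lower in TRAP. Its log2 fold changes were 0.17 in Control, 0.33 in EtOH and 0.21 in EtOH + ABT-888 mice (adjusted p = 0.130, 0.149 and 0.536), and the EtOH value passed only with the mouse as a block (0.31, adjusted p = 0.0304). Without that block it was 0.18 once the TRAP library of mouse 5 was left out, and the EtOH + ABT-888 value turned to -0.080 without the TRAP library of mouse 10.

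The next question was what 4 days of EtOH did to these transcripts. Camkk1 rose in EtOH mice in both fractions, and Camkk2 fell in total-RNA. Camk1d and Camk2n2 rose in total-RNA by smaller amounts. None of the 4 CaMKII subunit genes passed the test in either fraction. In TRAP, 1 of the 10 genes was higher in EtOH than in Control and 0 lower, where 4.96% of all genes passed, 2.53% higher and 2.43% lower. In total-RNA 3 were higher and 1 lower, where 17.8% of all genes passed, 8.99% higher and 8.80% lower. The median log2 fold change of the 10 genes was 0.22 in TRAP and 0.19 in total-RNA, beside -0.0013 and -0.00080 over all genes.

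Camkk1, on the plus strand, and Camkk2, on the minus strand, are shown by the 250 bases before their RefSeq start (GRCm38.p6, the build also named mm10), since they are the members with the largest changes and the changes were opposite. Capitals mark matches, on either strand, to the cAMP response element core TGACG, the GC box GGGCGG and the CCAAT box CCAAT.
Camkk1, chr11:73018738-73018987: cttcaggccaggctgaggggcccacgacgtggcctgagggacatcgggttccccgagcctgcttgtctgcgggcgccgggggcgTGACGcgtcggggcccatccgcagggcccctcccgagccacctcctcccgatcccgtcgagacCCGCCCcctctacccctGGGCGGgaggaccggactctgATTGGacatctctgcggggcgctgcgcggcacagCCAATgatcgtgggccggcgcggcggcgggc
Camkk2, chr5:122779411-122779660: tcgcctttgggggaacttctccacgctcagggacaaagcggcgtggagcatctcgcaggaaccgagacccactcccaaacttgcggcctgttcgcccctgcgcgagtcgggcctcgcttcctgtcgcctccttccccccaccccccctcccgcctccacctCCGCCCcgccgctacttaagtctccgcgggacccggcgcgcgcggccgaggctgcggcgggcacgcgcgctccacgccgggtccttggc
The Camkk1 window held 1 TGACG, 2 GGGCGG and 2 CCAAT matches and the Camkk2 window 1 GGGCGG match. Of 32851 windows of the same length in the RefSeq table, 17.8% held TGACG, 32.7% GGGCGG and 33.9% CCAAT. The Camkk1 window was 74.4% G or C and the Camkk2 window 72.4%, against a median of 52.4% over all windows, and the shares were not matched for base composition. The full cAMP response element TGACGTCA (1.55% of windows) and the E-box CACGTG (6.02%) were in neither. Windows were listed for 6 of the 10 genes.

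Camkk1 stood at 109.9, 113 and 101 CPM in the Control TRAP libraries (mice 1, 4 and 7) and at 249, 288, 168 and 184 CPM in the EtOH ones (mice 2, 5, 8 and 9). In total-RNA it stood at 101, 98.5 and 88.0 CPM in Control and at 189, 206, 168 and 144 CPM in EtOH. Every EtOH library was above every Control library in both fractions. The change was a log2 fold change of 1.04 (SE 0.19, adjusted p = 0.0135) in TRAP and a log2 fold change of 0.88 (SE 0.13, adjusted p = 0.000928) in total-RNA. The TRAP call was lost without any 1 Control library, mouse 1, 4 or 7 (adjusted p = 0.0739, 0.0701 and 0.0743), and the total-RNA call was lost when all 22 libraries shared one fit (adjusted p = 0.0607).

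Camkk2, which besides CaM kinases activates AMP-activated protein kinase, stood at 281, 318 and 252 CPM in the Control total-RNA libraries and at 154, 146, 159 and 206 CPM in the EtOH ones. In TRAP it stood at 473, 598 and 449 CPM in Control and at 353, 228, 338 and 391 CPM in EtOH. Every EtOH library was below every Control library in both fractions. Camkk2 fell in total-RNA with a log2 fold change of -0.77 (SE 0.13, adjusted p = 0.00206), a call lost in the one fit over all 22 libraries (adjusted p = 0.0760). In TRAP its log2 fold change was -0.63 (SE 0.18) and missed the threshold (adjusted p = 0.0662). It passed there without EtOH mouse 9 (adjusted p = 0.0328), and with no filter on low counts, DESeq2 or the exact test of edgeR (adjusted p = 0.0135, 0.0194 and 0.0216).

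**Figure D4:**
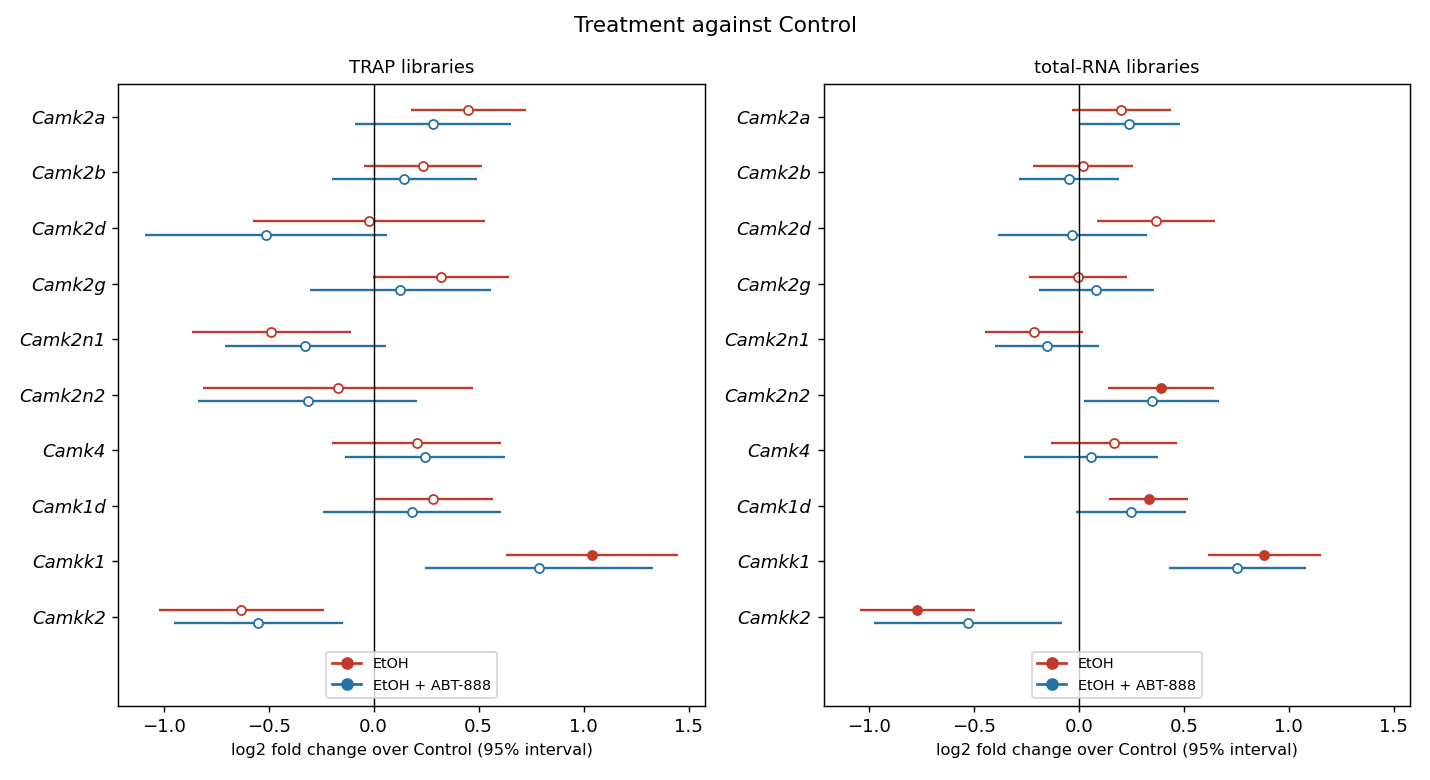
Log2 fold change over the same 3 Control mice for each gene, in 4 EtOH and 4 EtOH + ABT-888 mice, TRAP on the left and total-RNA on the right; lines are 95% intervals and filled points have an adjusted p under 0.05. Camkk1 lies right of 0 and Camkk2 left of 0 with both treatments and in both fractions, and 4 points in total-RNA and 1 in TRAP are filled, all of them EtOH.

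Camk1d stood at 225, 236 and 241 CPM in Control total-RNA and at 284, 305, 291 and 300.5 CPM in EtOH total-RNA, without overlap, a log2 fold change of 0.33 (SE 0.088, adjusted p = 0.0220). The call was lost without any 1 Control library, mouse 1, 4 or 7 (adjusted p = 0.125, 0.0924 and 0.0600). In TRAP it stood at 305, 330.0 and 295 CPM in Control and 366, 405, 407 and 331 CPM in EtOH, also without overlap, and did not pass (log2 fold change 0.28, adjusted p = 0.214). Camk2n2 stood at 28.2, 34.4 and 31.2 CPM in Control total-RNA and at 44.2, 42.6, 40.4 and 36.6 CPM in EtOH total-RNA, without overlap, a log2 fold change of 0.39 (SE 0.12, adjusted p = 0.0370). Its call held only when EtOH mouse 9 was the one left out, and was lost without any other single mouse (adjusted p = 0.0536 to 0.181). In TRAP Camk2n2 gave 24.2, 21.1 and 19.7 CPM in Control and 26.6, 11.9, 12.5 and 26.3 CPM in EtOH, with EtOH mice 5 and 8 below and mice 2 and 9 above all Control mice. In one fit over all 22 libraries neither gene was called in total-RNA (adjusted p = 0.294 and 0.448).

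Of the 6 genes with no call, Camk2a was closest in TRAP. It stood at 1888, 2029 and 1732 CPM in Control and at 2476, 2351, 2799 and 2673 CPM in EtOH, without overlap, with a log2 fold change of 0.45 (95% interval 0.18 to 0.72, adjusted p = 0.0599). It passed by DESeq2, the exact test of edgeR and the fit over all 22 libraries (adjusted p = 0.00981, 0.0339 and 0.0428). Camk2n1 stood at 1757, 2314 and 1367 CPM in Control TRAP and at 1082, 1274, 1396 and 1424 CPM in EtOH TRAP, where Control mouse 7 lay among the EtOH mice, and its log2 fold change was -0.49 (adjusted p = 0.125, and 0.0458 in the fit over all 22 libraries). Without Control mouse 4 that value was -0.27. Camk2d in total-RNA was at 121, 112 and 163 CPM in Control and 175, 152, 185 and 170.1 CPM in EtOH (log2 fold change 0.37, adjusted p = 0.0685), with Control mouse 7 inside the EtOH range. It passed without that mouse (adjusted p = 0.0210), and with no filter on low counts, by DESeq2 or by the exact test (adjusted p = 0.0260, 0.0452 and 0.0466). Camk2b, Camk2g and Camk4 had log2 fold changes of 0.24, 0.32 and 0.21 in TRAP and 0.020, -0.0037 and 0.17 in total-RNA (adjusted p = 0.220 to 0.987).

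Counted by overlap alone, EtOH and Control libraries did not overlap for 5 of the 10 genes in TRAP and for 4 in total-RNA. The same lack of overlap held for 22.3% and 30.5% of all genes tested. Cell type markers moved in the same samples. The 6 microglial markers summed to 225 to 238 CPM in Control and 77.1 to 112 CPM in EtOH total-RNA, with 5 of 6 lower by the test. In the same libraries 1 of 4 excitatory markers was higher (Neurod2) and 1 lower (Neurod6), 1 of 7 inhibitory markers (Gad2) and 1 of 5 striatal markers (Ppp1r1b) were higher, and the striatal sum was 507 to 649 CPM in Control and 635 to 961 CPM in EtOH. The excitatory sum was 1094 to 1317 CPM in Control and 1048 to 1209 CPM in EtOH, and the inhibitory sum was 821 to 883 and 942 to 1023 CPM. Of 6 astrocyte markers 1 was higher (Gfap) and 1 lower (Aqp4), of 6 oligodendrocyte markers 1 was higher (Mobp), and of 5 endothelial markers 1 was lower (Flt1). In TRAP the 4 excitatory neuron markers summed to 471 to 580.1 CPM in Control and 134 to 533 CPM in EtOH, with 1 of 4 (Neurod6) lower, while the 5 striatal markers summed to 4040.4 to 5267 and 4738 to 5814 CPM, with 0 of 5 higher and 1 (Drd2) lower by the test. The 6 microglial markers summed to 12.7 to 26.2 CPM in Control TRAP and 4.60 to 31.8 CPM in EtOH TRAP, with 1 of 6 lower by the test. No inhibitory neuron, astrocyte, oligodendrocyte, endothelial or nuclear RNA marker passed in TRAP. The part of these shifts in the changes of the 10 genes was not tested.

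Ratios within a library do not depend on library size. Counts per kb of Camk2n1 plus Camk2n2 relative to the 4 subunit genes were 1.05, 1.22 and 0.855 in Control TRAP and 0.509, 0.599, 0.580 and 0.643 in EtOH TRAP, every EtOH library below every Control library. The mean log2 ratio differed by -0.83 ± 0.16 (SE, 3 and 4 mice; exact permutation test, two-sided p = 0.0571, the smallest that 3 against 4 mice allow, and 0.171 adjusted over 9 ratio tests). The test could not pass 0.05 at this size. In total-RNA the ratio was 0.810, 0.775 and 0.873 in Control and 0.624, 0.581, 0.658 and 0.783 in EtOH, with EtOH mouse 9 among the Control mice (difference of means -0.32 ± 0.10 on the log2 scale, exact permutation p = 0.114). With EtOH + ABT-888 it was 0.691, 0.827, 0.618 and 0.762 in TRAP and 0.633, 0.591, 0.752 and 0.713 in total-RNA. The log2 ratio of Camk2b to Camk2a differed between EtOH and Control by -0.21 ± 0.10 in TRAP and -0.19 ± 0.070 in total-RNA (SE, exact permutation p = 0.171 and 0.114). That of Camk2d plus Camk2g to Camk2a plus Camk2b differed by -0.10 ± 0.20 and -0.13 ± 0.063 (exact permutation p = 0.629 and 0.114).

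The ratio of Camkk1 to Camkk2 counts per kb, looked at after their values had been seen and so given with no test, was 0.681, 0.555 and 0.660 in Control TRAP and 2.07, 3.70, 1.45 and 1.38 in EtOH TRAP. In total-RNA it was 1.06, 0.908 and 1.03 in Control and 3.59, 4.13, 3.10 and 2.06 in EtOH. With EtOH + ABT-888 it was 1.00, 1.03, 3.36 and 1.55 in TRAP and 1.36, 2.74, 4.30 and 2.29 in total-RNA. All 8 treated mice were above all 3 Control mice in each fraction, and mouse 10 was the highest of the EtOH + ABT-888 mice in both.

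**Figure D5:**
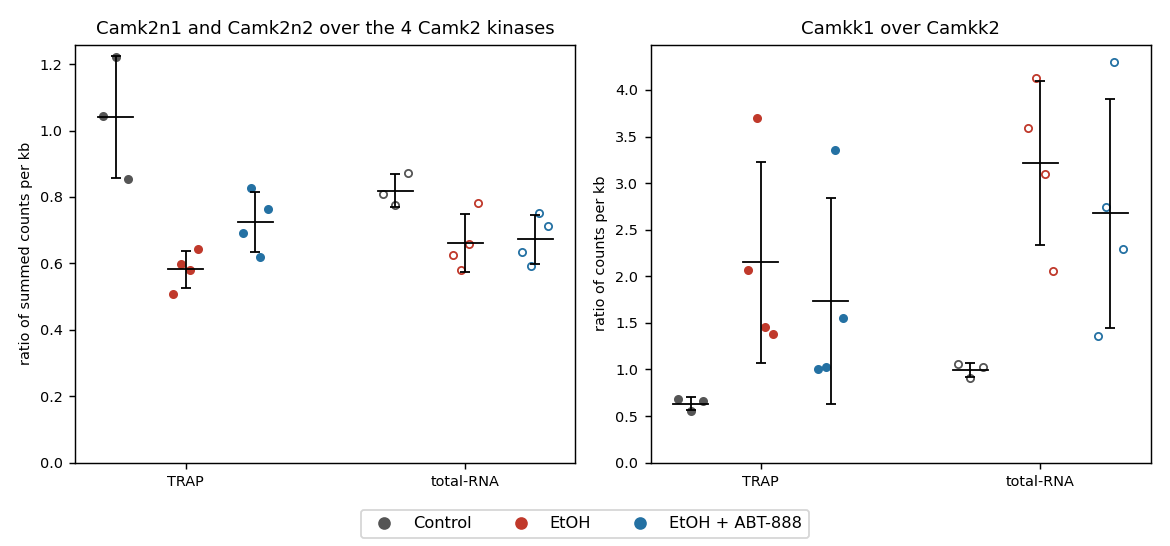
Ratio of the 2 inhibitor genes to the 4 CaMKII subunit genes (left) and of Camkk1 to Camkk2 (right), in counts per kb, for each library; bars give the mean and SD of each treatment group (n = 3 or 4), with filled circles for TRAP and open circles for total-RNA. On the left the 4 EtOH TRAP libraries lie below the 3 Control TRAP libraries, and on the right every treated library lies above every Control library of its fraction.

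With ABT-888 added to EtOH, none of the 10 genes passed edgeR's test against Control in TRAP, where 0.419% of all genes passed, or in total-RNA (0.263%). At an unadjusted p under 0.05, 2 of the 10 genes (Camkk1 and Camkk2) qualified in TRAP and 3 (Camkk1, Camkk2 and Camk2n2) in total-RNA, beside 1666 and 2243 of all 14072 genes, and in TRAP neither DESeq2 nor the exact test called any. Camkk1 stood at 144, 124, 287 and 189 CPM in TRAP and 131, 159.9, 204 and 152 CPM in total-RNA (mice 3, 6, 10 and 11), all above the Control libraries. Its log2 fold change over Control was 0.79 (SE 0.25, adjusted p = 0.223) in TRAP and 0.75 (SE 0.15, adjusted p = 0.0619) in total-RNA. The TRAP value was 0.50 without mouse 10 (adjusted p = 0.176). The total-RNA value passed with no filter, by DESeq2 and by the exact test of edgeR (adjusted p = 0.00211, 0.000740 and 0.000767), and without mouse 3 or mouse 10 (adjusted p = 0.00847 and 0.0257). Camkk2 stood at 421, 354, 251 and 358 CPM in TRAP and 281, 171, 139 and 195 CPM in total-RNA, where mouse 3 lay among the Control mice. Its log2 fold change was -0.55 (adjusted p = 0.249) in TRAP and -0.53 (adjusted p = 0.245) in total-RNA, and the latter passed without mouse 3 (adjusted p = 0.0164). In TRAP Camkk2 was below every Control library, and in total-RNA Camk2a, Camk2n2 and Camk1d, like Camkk1, were above every Control library. The share of all genes without overlap in these comparisons is not given here. Cell type markers also moved in the EtOH + ABT-888 libraries. The 4 excitatory markers summed to 229.6 to 383 CPM in TRAP, below every Control library (471 to 580.1 CPM), and in total-RNA they overlapped Control, at 1034 to 1353 against 1094 to 1317 CPM. Of the 4, 1 was lower by the test in each fraction (Neurod6). The 6 microglial markers summed to 61.9 to 179.7 CPM in total-RNA, below the 225 to 238 CPM of Control, with 0 of 6 passing. The 5 endothelial markers summed to 10.9 to 23.4 CPM in TRAP, above the 4.87 to 10.1 CPM of Control, with 0 of 5 passing. No marker of the inhibitory neuron, striatal, astrocyte, oligodendrocyte or nuclear RNA lists passed in either fraction, and their sums overlapped those of Control. The part of these shifts in the values of the 10 genes was not tested.

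EtOH + ABT-888 was then set against EtOH, the comparison in which only ABT-888 differs. No member passed in either fraction, and neither did any other gene (0% in TRAP and 0% in total-RNA). At an unadjusted p under 0.05 stood 130 genes in TRAP and 269 in total-RNA, and Camk2d was the only 1 of the 10 among them in either fraction, while DESeq2 and edgeR's exact test called none of the 10. Camk2d stood at 53.8, 33.4, 43.3 and 47.3 CPM in EtOH TRAP and 32.1, 23.1, 33.4 and 37.4 CPM in EtOH + ABT-888 TRAP, and at 175, 152, 185 and 170.1 against 108, 123, 157 and 129 CPM in total-RNA. The groups overlapped in both fractions for all 10 genes, whereas 0.945% of all genes in TRAP and 1.36% in total-RNA did not overlap. Its log2 fold change was -0.49 (95% interval -0.94 to -0.042, unadjusted p = 0.0345) in TRAP and -0.40 (95% interval -0.68 to -0.12, unadjusted p = 0.00882) in total-RNA by edgeR, with adjusted p of 0.9998 and 1.00. For Camkk1 the log2 difference between the treatments was -0.25 (95% interval -0.80 to 0.29) in TRAP and -0.13 (-0.46 to 0.20) in total-RNA. With one library left out these ran from -0.54 to -0.10 and from -0.26 to -0.040. For Camkk2 the difference was 0.079 (-0.35 to 0.50) in TRAP and 0.24 (-0.18 to 0.66) in total-RNA. The former ran from -0.0595 to 0.21 with one library left out, and the latter was 0.016 without EtOH + ABT-888 mouse 3.

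Whether a treatment acted differently on RE than on total-RNA was tested as an interaction over all 22 libraries, with no term for the mouse. None of the 10 genes passed for EtOH (0.0213% of all genes passed) or for EtOH + ABT-888 (0%), and none had an unadjusted p under 0.05, beside 685 and 476 of the 14072 genes, nor was any called by DESeq2 or with the mouse as a block. The difference of the EtOH effects, TRAP minus total-RNA, was 0.16 for Camkk1 (95% interval -0.50 to 0.81) and 0.14 for Camkk2 (-0.48 to 0.76). With the mouse as a block, which uses the pairing, the values were 0.13 (SE 0.18) and 0.13 (SE 0.15). The widest gap was that of Camk2n2, at -0.56 (-1.27 to 0.16) with EtOH and -0.66 (-1.38 to 0.057) with EtOH + ABT-888. Effects on Camkk2, Camk1d and Camk2n2 that passed in total-RNA and not in TRAP were thus not shown to differ between the fractions.

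Other genes of the calcium-calmodulin pathway were taken by lists. Among 10 further calcium-calmodulin kinases and kinase-like genes, 9 were tested, and 2 rose with EtOH in TRAP, where 4.96% of all genes passed. Camk1g, another CaM kinase I gene, gave a log2 fold change of 1.28 (SE 0.18, adjusted p = 0.00453), and Dapk1, a calmodulin-regulated death-associated kinase, gave a log2 fold change of 0.72 (SE 0.13, adjusted p = 0.0135). Camk1g also rose with EtOH + ABT-888 in TRAP (1.04, adjusted p = 0.0366), where it was the only one of the 9 to pass beside 0.419% of all genes, and its EtOH effect in total-RNA was 0.21 (adjusted p = 0.361). In total-RNA, where 17.8% of all genes passed, 2 rose, Dapk1 (0.70, adjusted p = 0.00115) and the elongation factor 2 kinase Eef2k (0.71, 0.00434), and 2 fell, Camk1 (-0.82, 0.00191) and the phosphorylase kinase subunit Phkg1 (-0.93, 0.0203). Of 3 small calmodulin-binding proteins and Pcp4l1, a relative of Pcp4, 3 fell in EtOH total-RNA, in the same comparison: Nrgn (-0.59, adjusted p = 0.0122), Gap43 (-0.56, 0.00582) and Pcp4 (-0.54, 0.0190). Gap43 fell in TRAP as well (-0.61, 0.0192). Pcp4l1 had the opposite sign and did not pass, at 0.38 in total-RNA (adjusted p = 0.0605) and 0.39 in TRAP (0.167).

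None of the 3 calmodulin genes, the 6 calcineurin genes, the 3 doublecortin-like kinases, the 2 CaM kinase phosphatases or the 5 targets of Camkk and Camk4 passed in any comparison of a treatment with Control, where 4.96% and 17.8% of all genes passed with EtOH and 0.419% and 0.263% with EtOH + ABT-888 in TRAP and total-RNA. Of 11 partners and substrates of CaMKII, 1 passed with EtOH in each fraction. The activity-regulated Arc fell with EtOH in TRAP (-1.30, SE 0.34, adjusted p = 0.0470) and the AMPA receptor subunit Gria1 rose in total-RNA (0.30, SE 0.088, adjusted p = 0.0351). Between the fractions in Control mice, where 60.2% of all genes passed, 6 of the 11 were higher in TRAP and 1 lower, among them the postsynaptic scaffold Dlg4 (1.02, adjusted p = 2.07e-05) and the NMDA receptor subunit Grin1 (0.70, 6.46e-05). Of the calcineurin genes 4 were higher and 1 lower, led by the catalytic subunit Ppp3ca (1.40, 3.62e-07). The calmodulin-binding proteins Pcp4 (2.13, 3.35e-07), Nrgn (1.21, 1.78e-05) and Gap43 (0.31, 0.00965) were higher in TRAP, as was Pcp4l1 (2.76, 6.20e-08). Of the 9 further kinase and kinase-like genes 2 were higher and 5 lower, with Camkv, a kinase-like protein without catalytic activity, at 1.12 (2.64e-06) and Phkg1 at -3.73 (1.74e-06). Of the doublecortin-like kinases Dclk3 (1.55, 1.62e-06) and Dclk2 (0.93, 1.26e-05) were higher. Calm2 (0.74, 5.15e-05) and Calm3 (0.35, 0.0334) were higher in TRAP, and the CaM kinase phosphatase Ppm1e was lower (-1.92, 8.54e-06). Of the targets, the CREB coactivator gene Crtc1 was higher (1.20, 1.06e-05), and 3 were lower, including Creb1 itself (-0.54, 0.000329).

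For the 4 members that changed with EtOH, the protein-coding genes with the most similar pattern were taken by Pearson's r of log2 CPM over the 11 libraries of a fraction, as a description across libraries that share treatment groups and depth. For Camkk1 these were Mrps26 (0.97), Maf1 (0.97) and Mgll (0.97) in TRAP and Ttc39c (0.99), Errfi1 (0.99) and Pip5k1a (0.98) in total-RNA. For Camkk2 they were Dusp7 (0.98), Lman2 (0.97) and Eml5 (0.96) in TRAP and Kcna6 (0.98), Gatm (0.98) and Sept11 (0.98) in total-RNA. For Camk1d they were Ddx24 (0.98), Slc45a1 (0.97) and Thoc3 (0.97) and Scamp1 (0.98), Ypel5 (0.97) and Asb7 (0.97). For Camk2n2 they were Ccdc136 (0.88), Pola2 (0.86) and Mtfr1 (0.85) and Tmem43 (0.97), Psmd9 (0.94) and Etv3 (0.94), the lowest values of the 4 in TRAP. No gene was among the nearest 3 of a member in both fractions.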

How the data were processed

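TRAP-RNA and total-RNA of the PFC were sequenced in 22 libraries from 11 mice after rRNA depletion, with paired reads of 50 bases. Per the labels and the study's methods, the authors aligned reads with STAR to mm10 and deposited raw counts per gene from featureCounts; versions, strand setting and handling of multi-mapped reads are not given in the sources used here. The ENSEMBL identifiers were named through GENCODE M21 (38872 of 39056), without version numbers. Genes with at least 500 counts in all and detected in at least 3 libraries were kept (14072). Counts were scaled by TMM and tested with edgeR 4.0.16 (R 4.3.3; glmQLFit and glmQLFTest), over the libraries of the groups compared, or all 22 for the interactions, with Benjamini-Hochberg adjustment over all genes tested and a threshold of 0.05. CPM are scaled by TMM, and CPM per kb use the exon bases of all transcripts. SE is the log2 fold change divided by the square root of F. Ratios were tested by exact permutation over mice. The fits were tested on simulated data.

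The members and lists were chosen with earlier results of these data known, and genes outside the 10 were named as the called ones with the smallest adjusted p in each list (at most 4); for the members called against Control, the 3 genes nearest by r were named. Animal numbers in the labels pair the 2 libraries of a mouse: after removal of group means, these correlated across genes with r of 0.102 to 0.622 in the 11 mice. The alternatives were other scaling and filters, DESeq2 1.42.0, the exact and likelihood ratio tests of edgeR, 1 fit over all libraries, the mouse as a block and each library left out. The 11 mice are separate animals. No other batch was named in the labels used here. Part of the marker genes is not reported here and is in no sum of markers.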

Additional observations from a re-analysis of the deposited data

Results flagged for a closer look

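Camk1d in the TRAP library of EtOH + ABT-888 mouse 10 stood at 501 CPM, far from the other 3 libraries of its group, which lay between 291 and 316 CPM. The gap was 0.881 of the group's range, above the critical value of Dixon's test at 95% for 4 samples. It was 1 of 52 groups of 4 examined, of which chance flags about 1 in 20. The total-RNA library of the same mouse was also the highest of its group for Camk1d, at 334 CPM. Across all genes, both libraries of mouse 10 were lowest or nearly lowest in median correlation with the other libraries of their fraction (0.9382 in TRAP, where mouse 6 had 0.9377, and 0.9709 in total-RNA), and the part of this in the Camk1d value was not tested. Without the TRAP library of mouse 10, the log2 fold change of Camk1d over Control in TRAP was -0.034 (adjusted p = 0.935 by edgeR's test), against 0.19 with it.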

How the results depend on the processing

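No fold change of the 10 genes changed sign where either value passed; of those under the alternatives, 1763 kept their side of the threshold, 43 lost a call and 24 gained one. For EtOH against Control in TRAP, 1 gene passed; without a filter on low counts 2 passed, by DESeq2, the exact test or one fit over all 22 libraries 3 each, and at adjusted p under 0.01 0. Leaving out one library gave 0 to 2, with 0 without Control mouse 1, 4 or 7 and 2 without EtOH mouse 9. In total-RNA 4 passed, and 5 without the filter, by DESeq2 or by the exact test, where Camk2d was added, but 0 in the fit over all 22 libraries and 2 at 0.01, and 2 to 4 with one library left out (2 without Control mouse 1 or 4). For EtOH + ABT-888 against Control, where 0 passed, 1 passed without the filter in TRAP; in total-RNA 1 passed without the filter and by DESeq2 or the exact test, and 0 to 2 with one library left out (2 without mouse 3, 1 without mouse 10). The log2 ratio of Camk2d plus Camk2g to Camk2a plus Camk2b, EtOH minus Control in TRAP, ran from -0.25 to 0.023 with one mouse left out and turned positive without Control mouse 7. The cause of these shifts was not tested, except that a stricter threshold cannot add calls.

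With the mouse as a replicate block, 8, 8 and 7 genes passed between TRAP and total-RNA in Control, EtOH and EtOH + ABT-888, against 8, 6 and 6 without it. Over all genes the calls went from 8474, 7182 and 5769 to 8851, 8307 and 7642 under the block. Among the 10 genes the calls gained were Camk4 and Camkk1 in EtOH and Camk1d in EtOH + ABT-888, and the pairing changed no other call, interactions included. The ratio tests with 3 against 4 mice could not reach 0.05. The use of the longest coding transcript as length was chosen after the data had been seen, and left each ratio on its side of the threshold. In TRAP, Camk2n2 and Camk2d rest on the fewest counts of the 10 genes. Levels per kb depend on the gene models.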
